A study of Homo sapiens with 26 samples.

Results

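The cytosolic ribosome is built from ribosomal RNA and a fixed set of proteins, and the genes of those proteins were followed here in human breast tumors grown in mice and treated with a CDK4 inhibitor. Members were taken by symbol: RPL or RPS followed by a number and, in some cases, A or X, together with RPLP0, RPLP1, RPLP2 and RPSA. The rule found 76 of the 30331 named genes of the expression table, which is 0.251%. The large subunit accounted for 46 and the small subunit for 30. The symbol rule itself uses no expression value, but the set was chosen with earlier results of these data known. Pseudogenes, the paralogs whose symbols end in L or L1, and the S6 kinases lie outside the rule.

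The tumors were xenografts of ZR751, an established human breast cancer cell line that is positive for the estrogen receptor and negative for HER2, in female NSG mice, which lack most of their own immune cells. Dosing began at a tumor volume of 150 mm3. The vehicle group held 5 mice given DMSO for 3 days. The sensitive group held 3 mice given the CDK4 inhibitor atirmociclib (PF-07220060) for 3 days, as oral doses of 60 mg/kg 7 h apart, 2 times daily. The resistant group held 5 mice given the same drug and dose for 84 to 91 days, in a separate study that had no vehicle mice of its own among the samples used here. Wherever the resistant mice are compared, treatment length, study and resistance cannot be told apart. All tumors were collected 3 h after the last dose, and each tumor gave 2 libraries, named A and B, and the sources used here do not give the step at which they part. The model is 1 cell line, and the mouse is the replicate throughout.

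Ribosomal proteins are made in step with one another, because a protein left without its partners is degraded. Their messenger RNAs belong to the TOP class, which begin at a C followed by a run of pyrimidines (C or T in DNA), the 5′ terminal oligopyrimidine tract. The kinase complex mTORC1 sets how well TOP messages are translated and how long they last, mainly through the tract-binding protein LARP1. Besides building ribosomes, RPL5, RPL11 and RPL23 can bind MDM2, the ubiquitin ligase of p53, when ribosome assembly is disturbed.

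The tract was looked for in RefSeq sequence of build GRCh38.p14, which held a start region for 62 of the 76 members. Below are 30-base windows with 15 bases before the annotated start and 15 from it, 5′ to 3′ on the coding strand. Capitals mark only a tract that begins exactly at that start. They were chosen to show the most abundant member (RPS27), the members with the largest or clearest changes described further on (RPS18, RPL39, RPL13, RPL31, RPL12, RPL26), the member with the smallest change (RPSA), and 3 members without a tract at the listed start (RPL3, RPS4X, RPS15).
RPS27: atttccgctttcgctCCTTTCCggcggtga
RPS18: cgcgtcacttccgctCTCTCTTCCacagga
RPL39: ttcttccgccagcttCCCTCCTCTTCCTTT
RPL13: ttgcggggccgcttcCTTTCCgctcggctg
RPL31: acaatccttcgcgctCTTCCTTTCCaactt
RPL12: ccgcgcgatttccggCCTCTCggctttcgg
RPL26: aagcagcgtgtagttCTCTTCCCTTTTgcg
RPSA: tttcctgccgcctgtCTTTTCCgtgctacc
RPL3: gtaaggccgaccggcctctaccggcgggat
RPS4X: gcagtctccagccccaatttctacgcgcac
RPS15: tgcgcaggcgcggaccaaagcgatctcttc
Each window surrounds a start listed by RefSeq. By the gene bounds of GENCODE 29, the windows of RPS27, RPL39 and RPL12 lie partly and the other windows shown lie wholly within the gene. The windows lie at chr1:153990747-153990776 (plus strand) for RPS27, chr6:33272060-33272089 (plus strand) for RPS18, chrX:119791616-119791645 (minus strand) for RPL39, chr16:89560667-89560696 (plus strand) for RPL13 and chr2:101002274-101002303 (plus strand) for RPL31. Those of the others are chr9:127451392-127451421 (minus strand) for RPL12, chr17:8383179-8383208 (minus strand) for RPL26, chr3:39406705-39406734 (plus strand) for RPSA, chr22:39319609-39319638 (minus strand) for RPL3, chrX:72277234-72277263 (minus strand) for RPS4X and chr19:1438381-1438410 (plus strand) for RPS15.

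A C followed by at least 4 pyrimidines stood exactly at a listed start in 46 of the 62 members (74.2%), against 5.14% of the 27305 genes with a start region. The tracts were 5 to 19 bases long, with a median of 8. Within 10 bases of the start, a distance chosen after the sequences were seen, the share was 91.9% of members and 38.4% of all genes. In the whole 300-base region, 250 before the start and 50 from it, CCGGAAG (an ETS family motif, searched on both strands) was present in 35.5% of members and 12.2% of all genes. AAGATGGC, the motif of YY1, was present in 9.68% against 3.52%, CACGTG, the E-box bound by MYC, in 6.45% against 8.77%, and TATAAA in 8.06% against 14.0%. These 4 motifs were searched as exact letters, none of them contains another, and a match describes the sequence only.

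Expression was measured as TPM, reads per transcript length scaled so that the genes of every library add up to the same total. No read counts were used here, so the depth of the libraries is unknown and no counting interval can be given. A and B of 1 mouse differed by 0.00131 to 1.33 percentage points in the summed share of the members and were averaged. The ZR751 identity was checked on 8 luminal genes (ESR1, GATA3, FOXA1, KRT8, KRT18, KRT19, EPCAM, CDH1), all detected, which summed to 7974 to 12245 TPM in vehicle, 7389 to 9513 TPM in sensitive and 10254 to 13757 TPM in resistant mice. Human markers of fibroblasts, blood and endothelium summed to 10.4 to 15.7, 10.1 to 14.6 and 16.0 to 20.5 TPM in the same groups, and 8 of the 11 were below 1 TPM in every mouse, PTPRC and CDH5 among them. Of the other 3, CD68 and LYZ, both macrophage genes, were called higher in resistant tumors. COL1A1, a collagen gene, had means of 9.93 TPM in vehicle, 6.68 TPM in sensitive and 7.28 TPM in resistant mice. It was called in no comparison (limma adjusted p = 0.154 in sensitive over vehicle, 0.835 in resistant over sensitive and 0.0976 in resistant over vehicle). CD68 was at 1.65 to 3.31 TPM in vehicle, 2.00 to 5.16 TPM in sensitive and 3.77 to 10.2 TPM in resistant mice (limma adjusted p = 0.000514 over vehicle and 0.024 over sensitive). LYZ was at 0.215 to 1.14, 0.755 to 1.06 and 1.85 to 4.65 TPM (adjusted p = 0.000197 and 0.00602), and the part of these changes in the results was not tested. Most members have processed pseudogenes that are nearly identical to them, and human and mouse ribosomal protein messages are much alike. The sources used here do not give how shared reads and mouse reads were handled, so each level is uncertain to that extent. MKI67, a gene of dividing cells, stood at 36.2 to 58.2 TPM in vehicle, 0.970 to 1.99 TPM in sensitive and 2.36 to 8.91 TPM in resistant mice.

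Vehicle mouse 1-5 stood apart from the other vehicle mice, and the members' share and the counts of calls are therefore also given without it. It was the lowest vehicle mouse for 74 of the 76 members and the lowest of all 13 mice for 69. Such counts over all genes are not given, so these do not show a trait of the members alone. In the same tumor SCGB2A2, the secreted mammaglobin, was at 8880 TPM against 1968 to 2790 TPM in the other 4, XBP1, a secretory stress factor, at 6058 TPM against 2324 to 3445 TPM, and TFF1, an estrogen receptor target, at 139 TPM against 452 to 2540 TPM. The part of these differences in the results was not tested. Among the resistant mice 9-7 was the lowest for 57 members, and among the sensitive mice 6-4 was the lowest for 62.

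Ribosomal protein genes were among the most abundant messages of these tumors. In the vehicle mice 61 of the 100 genes with the highest mean were members, the median member had a mean of 2757 TPM, and 66 members exceeded 1000 TPM in every mouse. The range from the highest to the lowest member was 60.1-fold, although the proteins are needed in about equal numbers.

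**Figure D1:**
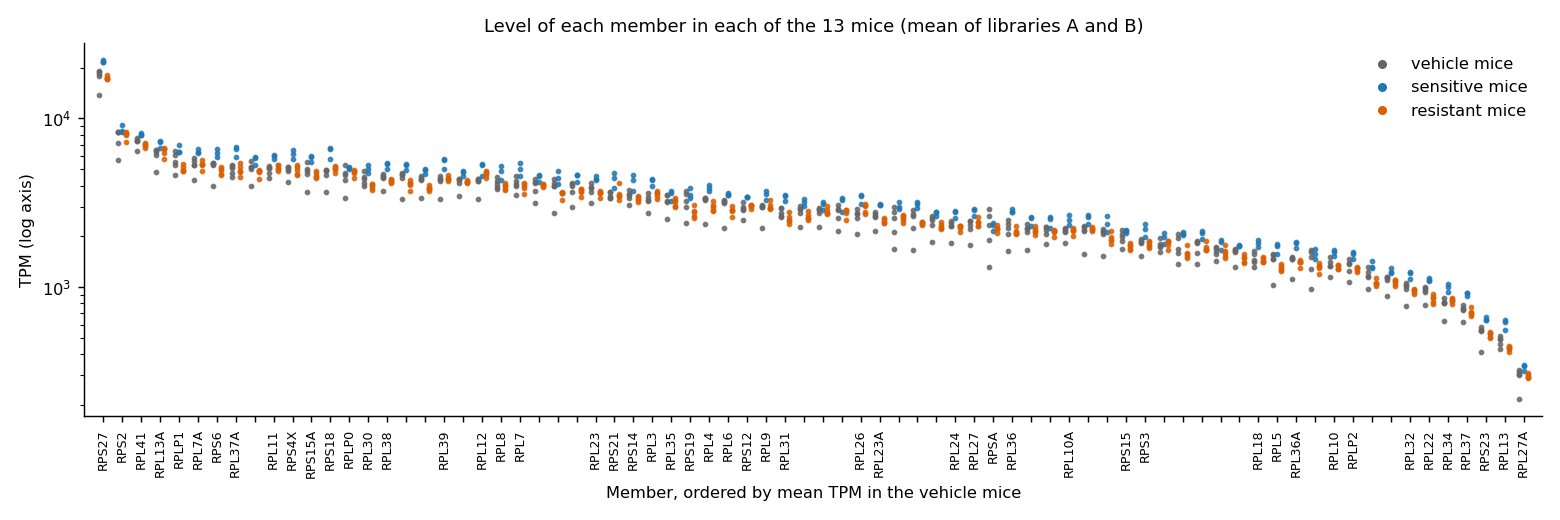
TPM on a log axis of the 76 members (x axis, ordered by the mean of the vehicle mice) in each of the 13 mice, coloured by group, with A and B averaged. RPS27 stands alone at the top at 13811 to 22269 TPM and RPL27A at the bottom at 216 to 344 TPM, and for most members the sensitive points lie highest. Here and in the other plots by member, gene symbols are given only for members named in the text.

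RPS27, a zinc finger protein of the small subunit (chr1:153990755-153992155, plus strand in GENCODE 29), had the highest mean of all genes in the vehicle mice. Its level was 18801, 18264, 13811, 18982 and 17716 TPM in vehicle mice 1-2, 1-4, 1-5, 1-6 and 1-9. The sensitive mice 6-4, 6-5 and 6-6 had 21625, 21534 and 22269 TPM, and the resistant mice 9-3, 9-6, 9-7, 9-8 and 9-9 had 17299, 18103, 17413, 17039 and 17013 TPM. All later lists of values keep this order of mice. The 3 sensitive values lay above all others, and the low vehicle value was that of mouse 1-5. RPS27 made up 7.30% of the summed vehicle level of the members and exceeded the next member, RPS2, by 2.33-fold.

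RPS2, which lies near the messenger RNA entry channel, had 8257, 8270.0, 5645, 8297 and 7136 TPM in vehicle, 8301, 8464 and 9121 TPM in sensitive and 8348, 8174, 8016, 7233 and 8064 TPM in resistant mice. Resistant and sensitive values overlapped, and the sensitive values exceeded the vehicle values by a narrow margin. RPL41, the smallest ribosomal protein, had 7609, 7359, 6409, 7483 and 7345 TPM, 7953, 8218 and 7925 TPM and 7175, 6910.3, 6664, 6833 and 7048 TPM in the 3 groups. Its sensitive values lay above every other mouse, and all 5 resistant values lay below the 4 vehicle values other than that of 1-5. RPL13A, also known as part of a complex that silences inflammatory messages, had 6461, 6465, 4783, 6311 and 6092 TPM, 6653, 7332 and 7241 TPM and 6551, 6641, 5758, 6226 and 6562 TPM. RPLP1, an acidic stalk protein that recruits elongation factors, had 5498, 6088, 4601, 6414 and 5269 TPM, 6919.6, 6335 and 6295 TPM and 4869, 5177, 5395, 4953 and 4870.1 TPM. For RPLP1 the sensitive and vehicle groups overlapped through vehicle mouse 1-6, while all resistant values were below all sensitive ones.

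At the low end of the levels, RPL27A had 322, 305, 216, 314 and 302 TPM in vehicle, 318, 339 and 344 TPM in sensitive and 301, 294, 294, 288 and 308 TPM in resistant mice. RPS23, a protein of the decoding centre, had 558, 552, 414, 583 and 561 TPM, 639, 669.6 and 639.7 TPM and 533, 531, 498, 504 and 542 TPM. For RPS23 the sensitive mice were above all others, whereas for RPL27A vehicle mouse 1-2 exceeded sensitive mouse 6-4. TPM is a level per length, and the annotated transcripts of the 5 lowest members, RPL27A, RPL13, RPS23, RPL37 and RPL34, had 4916, 4498, 3437, 7686 and 853 bases, against a median of 1010.5 for the members.

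Together the 76 members held 24.0 ± 2.52% of all TPM in vehicle (SD, n = 5), 28.7 ± 1.2% in sensitive (n = 3) and 23.8 ± 0.535% in resistant tumors (n = 5). By mouse the vehicle shares were 25.3, 25.3, 19.5, 25.4 and 24.3%, the sensitive shares 27.3, 29.5 and 29.3%, and the resistant shares 24.1, 24.0, 22.9, 23.9 and 24.1%. The 3 sensitive tumors were above the other 10, and vehicle and resistant tumors overlapped. Without mouse 1-5 the vehicle share was 25.1 ± 0.504% (n = 4), so that the 4 remaining vehicle tumors lay above all 5 resistant ones. SCGB2A2 was at 1968 to 2790 TPM in these 4 vehicle mice and 19576 to 31838 TPM in the resistant mice. TFF1 was at 452 to 2540 TPM and 7699 to 14887.5 TPM in the same mice. Both genes count in the total, and their part in the shares was not tested. Large and small subunits kept a steady proportion: the ratio of their summed levels was 1.21 ± 0.0269 in vehicle, 1.22 ± 0.00701 in sensitive and 1.23 ± 0.00913 in resistant mice. After median-of-ratios scaling, which sets a library's scale by its median gene and not by its total, the summed members corresponded to 22.6 ± 2.88, 28.9 ± 2.21 and 24.8 ± 0.977% of the TPM total. On that scale the vehicle share without mouse 1-5 was 23.8 ± 1.28% (n = 4), below the resistant mean, and the groups overlapped (22.4 to 25.5% against 23.2 to 25.5%). In bulk tumors fewer cells of a type and less RNA per cell cannot be told apart.

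**Figure D2:**
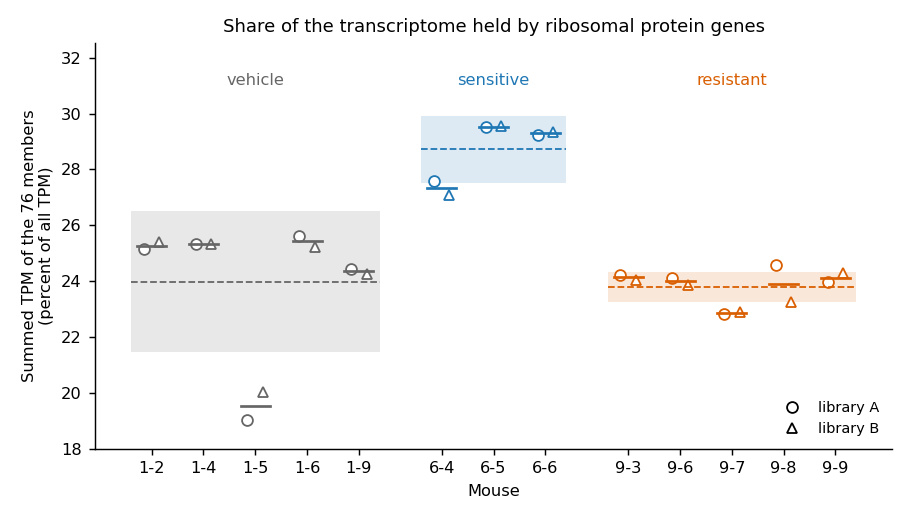
Summed TPM of the 76 members as a percent of all TPM (y axis, from 18%) in each mouse, with library A as circles, library B as triangles, a short line for the mouse, and a dashed line and band for the group mean ± SD over mice. The sensitive mice sit between 27.3 and 29.5%, above every vehicle and resistant mouse, and vehicle mouse 1-5 sits alone at 19.5%.

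Short treatment was compared with vehicle first. Every one of the 76 members had a higher mean in the sensitive than in the vehicle tumors, by 1.03 to 1.37-fold in mean TPM. The limma test with Benjamini-Hochberg adjustment over 14079 genes called 31 members higher at an adjusted p under 0.05 and 0 lower. Of all genes tested, 3.16% were called higher and 12.6% lower. Changes here and below are log2 differences in TPM + 1, given relative to the median gene with the standard error of the fit, since the median gene itself moved by -0.07 (sensitive over vehicle), -0.05 (resistant over sensitive) and -0.14 (resistant over vehicle). Adjusted p-values belong to the change before that median was subtracted. Relative to the median gene the members' change ran from 0.16 to 0.53, with a median of 0.33. The groups did not overlap for 50 members, all higher in sensitive mice, against 5.24% of all genes. With mouse 1-5 left out, RPSA had a lower mean in sensitive than in vehicle tumors. The members' relative change then ran from -0.02 to 0.44, with a median of 0.26. Of the 76 members, 75 then lay above the median gene.

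**Figure D3:**
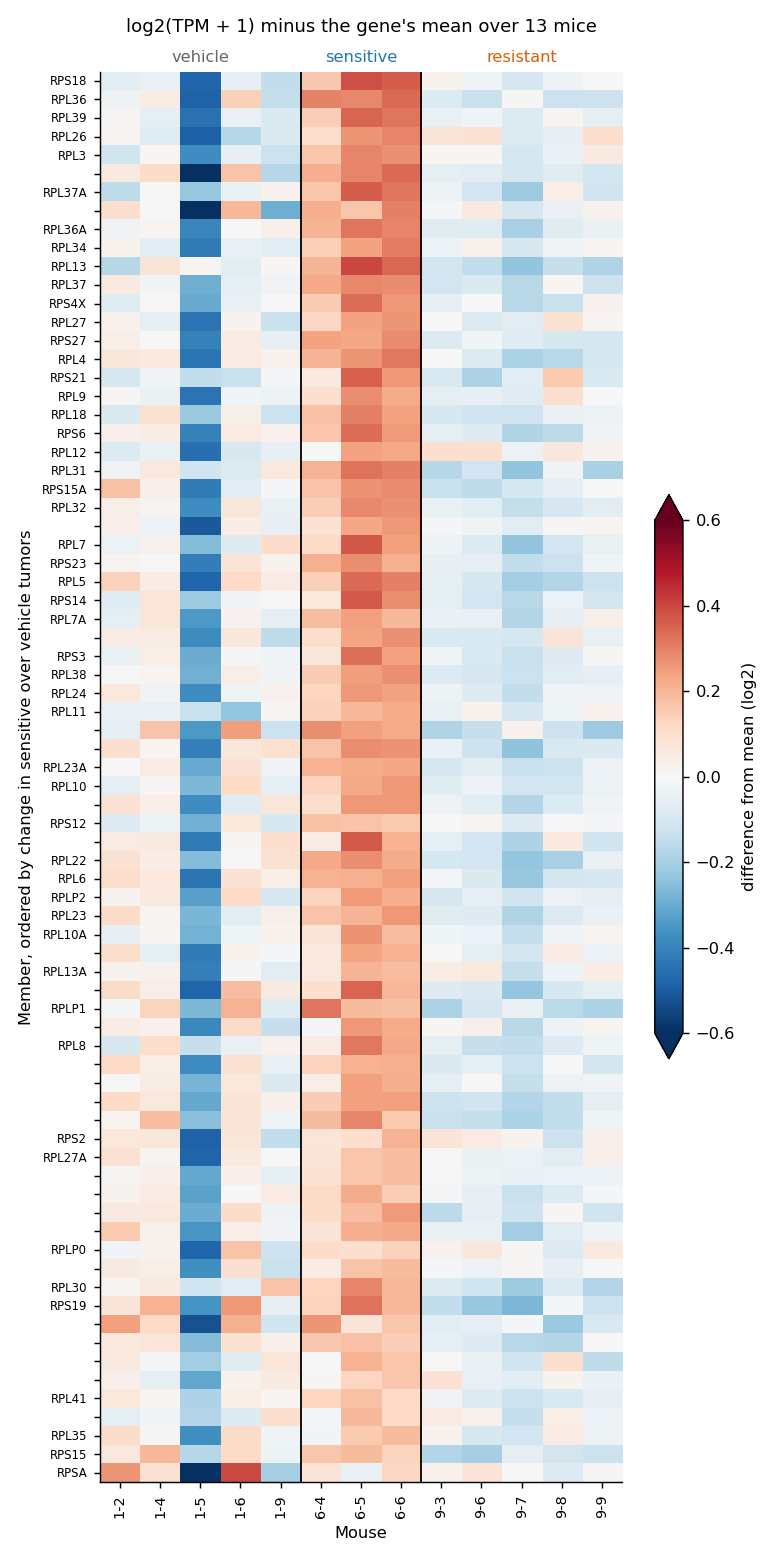
Level of each member in each mouse as log2(TPM + 1) minus that gene's mean over the 13 mice (colour, with values past 0.6 in either direction drawn in the end colours), members ordered from the largest to the smallest relative change in sensitive over vehicle tumors. The sensitive columns are mostly red, the column of vehicle mouse 1-5 is mostly blue, and the resistant columns are pale.

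RPL13, RPS18 and RPL37 were called in this comparison whichever single mouse was left out. RPS18 (chr6:33272010-33276510, plus strand), a small subunit protein at the contact between the subunits, had the largest change. It stood at 4898, 4965, 3673, 4944 and 4619 TPM in vehicle, 5733, 6694 and 6573 TPM in sensitive and 5193, 5028, 4769.9, 5009.8 and 5129 TPM in resistant mice. The sensitive mice were above all 10 others, and the change was 0.53 ± 0.10 (adjusted p = 0.00627). RPL13 (chr16:89560657-89566828, plus strand), a large subunit protein, had 431, 512, 491, 463 and 489.8 TPM, 559.6, 642 and 618 TPM and 449, 438, 412, 441 and 428 TPM. Mouse 1-5 was not low for this gene, and its change was 0.42 ± 0.07 (adjusted p = 0.00361). RPL37 (chr5:40825262-40835335, minus strand), a zinc finger protein of the large subunit, had 785, 749, 617, 729 and 744 TPM, 886, 924 and 922 TPM and 699, 713, 674, 763 and 692 TPM. Its change was 0.41 ± 0.07 (adjusted p = 0.00807), and no sensitive value reached down to a vehicle value.

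The next called members by adjusted p were all of the large subunit. RPL3, which reaches toward the peptidyl transferase centre where peptide bonds form, had 3286, 3592, 2758, 3443 and 3256 TPM in vehicle, 3999.8, 4372 and 4306 TPM in sensitive and 3594, 3593, 3314, 3467 and 3696 TPM in resistant mice. It rose by 0.45 ± 0.08 (adjusted p = 0.00767). RPL37A, another zinc finger protein, had 4737, 5243, 4494, 5110.4 and 5328 TPM, 5893, 6767 and 6561 TPM and 5144, 4852, 4521, 5406 and 4842 TPM. It rose by 0.44 ± 0.08 (adjusted p = 0.00961). RPL31, which lies at the exit of the peptide tunnel, had 2767, 2929.6, 2586, 2649.9 and 2935 TPM, 3249.6, 3522 and 3463 TPM and 2497, 2589.5, 2380.5, 2769 and 2453 TPM. It rose by 0.37 ± 0.07 (adjusted p = 0.0114), and for all 3 of these genes the sensitive mice stood above every vehicle and resistant mouse. RPL34 had 857, 806, 632, 820.0 and 805 TPM, 934, 999.9 and 1046 TPM and 825, 861, 790.1, 833 and 852 TPM, and rose by 0.42 ± 0.09 (adjusted p = 0.0161). RPS27, whose values are given above, rose by 0.40 ± 0.10 (adjusted p = 0.0406), and RPL39, a protein lining the peptide tunnel, by 0.47 ± 0.10 (adjusted p = 0.0129).

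The other called members were RPL7, RPL7A, RPL9, RPL10, RPL10A, RPL11, RPL12, RPL18, RPL22, RPL23A, RPL26, RPL27, RPL32, RPL36, RPL36A and RPL38 of the large subunit and RPS3, RPS4X, RPS12, RPS14, RPS21 and RPS23 of the small subunit. By subunit, 23 of 46 large and 8 of 30 small members were called, with median changes of 0.35 and 0.30. A difference between the subunits was not tested. At the other end RPSA, which is also known as the laminin receptor precursor, changed least, with 2643, 2348, 1319, 2899 and 1915 TPM in vehicle, 2321, 2141 and 2397 TPM in sensitive and 2240.1, 2329.5, 2199, 2079 and 2216 TPM in resistant mice. Its vehicle values spread more than those of any other member (SD 0.45 on the log2 scale), they enclosed the sensitive values, and its change was 0.16 ± 0.19 (adjusted p = 0.787). RPS15 and RPL35 came next, at 0.20 ± 0.08 and 0.22 ± 0.10, and neither was called. The direction of RPSA rested on vehicle mouse 1-5, since with that mouse left out its relative change was -0.02.

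The number of calls rested on the scaling and on single mice, while the direction did so less. After median-of-ratios scaling 37 members were called higher, against 5.48% of genes higher and 7.57% lower, among them all 31 and also RPS6, RPS15A, RPL4, RPL8, RPL23 and RPL24. Without mouse 1-5 the count was 41, against a background of 3.85%, and the median change was 0.26. Without sensitive mouse 6-5 it was 3, against 0.71% of all genes, and without 6-6 it was 4, against 0.788%. Quantile normalization, which gives every mouse the same set of values and so nearly fixes the top ranks that the members fill, left 9 calls (against 6.61% of all genes), a median change of 0.04 and 26 members below the median gene.

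**Figure D4:**
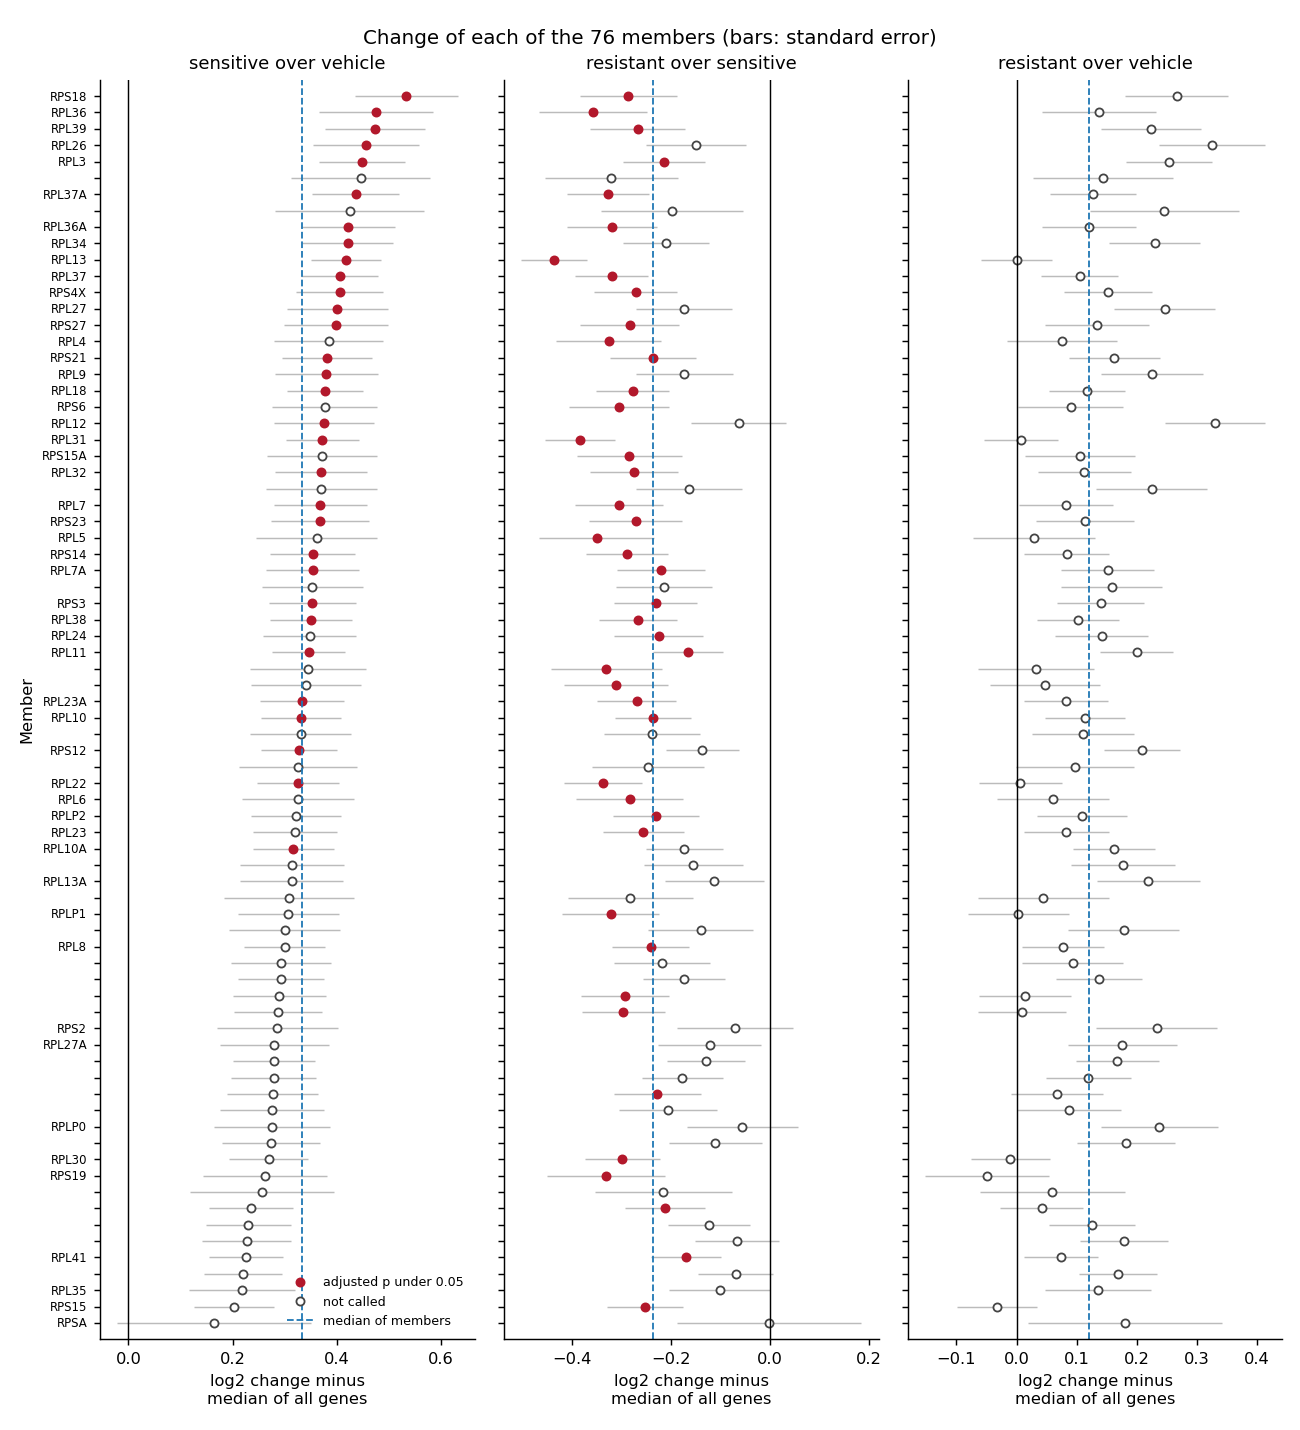
log2 change of each of the 76 members relative to the median of all genes (x axis, bars are standard errors) in the 3 comparisons, with filled points for an adjusted p under 0.05 and a dashed line at the members' median. All points lie right of 0 in sensitive over vehicle and left of 0 in resistant over sensitive, with medians of 0.33 and -0.24, and no point is filled in resistant over vehicle.

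Resistant tumors were compared with sensitive ones next. All 76 members had a lower mean in the resistant tumors, at 0.715 to 0.968 of the sensitive mean TPM, and 44 were called lower and 0 higher. Of all genes tested, 11.6% were called lower and 9.56% higher. The relative change ran from -0.44 to -0.001, with a median of -0.24. Resistant and sensitive mice did not overlap for 65 members, all lower in resistant mice, against 18.0% of all genes. The large subunit gave 28 of 46 calls and the small subunit 16 of 30. This comparison uses the same 3 sensitive mice as the one before, so the 2 sets of calls are not independent: 24 members were called in both, 7 in sensitive over vehicle alone, 20 in resistant over sensitive alone and 25 in neither.

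RPL13 had the largest fall, -0.44 ± 0.07 (adjusted p = 0.000602), followed by RPL31 with -0.38 ± 0.07 (adjusted p = 0.00145). RPL37 and RPL37A fell too, with -0.32 ± 0.07 (adjusted p = 0.00477) and -0.33 ± 0.08 (adjusted p = 0.00787). The per-mouse values of these 4 genes stand above, and in each of them every resistant mouse was below every sensitive mouse. RPL22, an RNA-binding protein of the large subunit, had 995, 963, 781, 932 and 995 TPM in vehicle, 1095, 1136 and 1092 TPM in sensitive and 869, 863, 796, 816 and 907 TPM in resistant mice. It fell by 0.34 ± 0.08 (adjusted p = 0.00532). RPL30, which binds the messages of selenoproteins as well as the ribosome, had 4394, 4500.0, 3989, 4148 and 4885 TPM, 4749, 5315 and 4984 TPM and 4096, 3994, 3740.4, 4095 and 3843 TPM. It fell by 0.30 ± 0.08 (adjusted p = 0.00769), although vehicle mouse 1-9 reached into the sensitive range.

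These 6 genes (RPL13, RPL22, RPL30, RPL31, RPL37 and RPL37A) and RPL18 were called lower whichever single mouse was left out. The same 6 without RPL18 were also the only members called after median-of-ratios scaling, against a background of 9.48% lower and 12.2% higher. In that scaling the median relative change was -0.23, close to the -0.24 above, while the change before subtraction of the median gene was -0.23 in place of -0.28. Without mouse 1-5, which enters here only through the shared estimate of spread, 64 members were called, against 14.0% of all genes. With median-of-ratios scaling and without that mouse the count was 39, against 11.5%. Leaving out sensitive mouse 6-5 left 7 calls, against 5.65% of all genes, and leaving out 6-6 left 14, against 7.99%. Members that were called in sensitive over vehicle and not here were RPL9, RPL10A, RPL12, RPL26, RPL27, RPL34 and RPS12.

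Resistant tumors were last compared with vehicle tumors. The limma test called 0 members in either direction, against 11.5% of all genes higher and 32.5% lower. At an unadjusted p under 0.05 it gave 1 higher (RPL12) and 3 lower (RPL13, RPL30 and RPS15). The share of all genes at that unadjusted cut is not given, so these members are not counted as changed. The ratio of the mean TPM ran from 0.872 to 1.14. Since the median gene was lower in resistant tumors by 0.14, 73 of 76 members lay above it, with a median relative change of 0.12, and only RPL30, RPS15 and RPS19 lay below it. Before that subtraction 33 members were above 0 and 43 below. The position relative to the median gene depended on mouse 1-5 and on the scaling. With that mouse left out 54 members lay above the median gene, with a median of 0.04. Under quantile normalization 24 did, with a median of -0.05, and under median-of-ratios scaling 74 did, with a median of 0.13.

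RPL12, a protein at the base of the stalk, was the one member whose resistant mice all exceeded all vehicle mice, against 6.63% of all genes. It had 4276, 4387, 3313, 4237 and 4375 TPM in vehicle, 4535, 5354 and 5302 TPM in sensitive and 4848, 4831, 4417, 4752 and 4597 TPM in resistant mice. The resistant values lay within or near the sensitive range, and the change over vehicle was 0.33 ± 0.08 (adjusted p = 0.0729). RPL26, which is also known to bind the p53 message, had 2912, 2741, 2051, 2558 and 2711 TPM, 3104, 3466 and 3525 TPM and 3039, 3060.1, 2722, 2783 and 3099.8 TPM, with a change of 0.32 ± 0.09 (adjusted p = 0.096). After median-of-ratios scaling RPL12, RPL26, RPL3 and RPL11 were called higher, with adjusted p = 0.0193, 0.0204, 0.0334 and 0.0319, against 18.0% of all genes higher and 17.3% lower. Without mouse 1-5 0 were called higher and 20 lower, against 12.1% and 31.6% of all genes. Those 20 included RPS15, RPS19, RPL5, RPL6 and RPL22.

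To see which members departed from the others, each mouse was centred on its median member and the fit repeated. RPS18 was then higher in sensitive than in vehicle tumors by 0.21 (adjusted p = 0.00651) and RPL39 by 0.15 (adjusted p = 0.0424), and no other member was called. On that scale 0.945% of all genes were called higher and 33.9% lower. In resistant over sensitive tumors 0 members departed in either direction, against 20.6% of all genes higher and 1.58% lower. At an unadjusted p under 0.05 5 did, with no share of all genes at that cut to set beside them. In resistant over vehicle tumors RPL12, RPL26 and RPS18 were higher than the other members by 0.20, 0.20 and 0.14 (adjusted p = 0.00569, 0.0186 and 0.0257), against 8.67% of all genes higher and 18.2% lower. RPS19, the gene most often mutated in Diamond-Blackfan anemia, was lower by 0.18 (adjusted p = 0.0376), with 3257, 3560.5, 2407, 3697 and 2978 TPM in vehicle and 2785, 2631, 2558, 3060.1 and 2822 TPM in resistant mice. Without mouse 1-5 RPS18 and RPL39 were again the members called higher in sensitive over vehicle tumors, against 1.47% of all genes. In resistant over vehicle tumors 4 were then higher, against 13.4% of all genes, and 4 lower, against 16.1%: RPL12, RPL26 and RPS18 were called again and RPL3 was added, and RPS19 and RPL5 were among the lower ones. In resistant over sensitive tumors 2 were higher, RPL12 among them, and 2 lower (RPL13 and RPL31), against 31.6% and 2.41% of all genes.

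The spread of single members between mice was compared with that of other genes. The median SD of a member was 0.08 log2 units in sensitive and 0.06 in resistant mice, against 0.13 and 0.15 over all genes tested. In vehicle mice it was 0.18, against 0.18 over all genes, and without mouse 1-5 it was 0.07, against 0.15. All 76 members are in the top decile by mean TPM, and their spread was not compared with that of other genes of like level.

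Among the members with a role beyond the ribosome, RPL11 was higher in sensitive tumors by 0.35 ± 0.07 (adjusted p = 0.019). Its MDM2-binding partners RPL5 and RPL23 had 0.36 ± 0.12 and 0.32 ± 0.08 and were not called (adjusted p = 0.109 and 0.0537). All 3 were called lower in resistant than in sensitive tumors, by 0.16 to 0.35. The stalk genes RPLP0, RPLP1 and RPLP2 had changes of 0.28, 0.31 and 0.32 in sensitive over vehicle tumors with 0 calls. RPLP1 and RPLP2 were lower in resistant than in sensitive tumors, by 0.32 ± 0.10 and 0.23 ± 0.09 (adjusted p = 0.018 and 0.0368), and RPLP0 was at -0.06 ± 0.11 (adjusted p = 0.555). After median-of-ratios scaling none of these genes was called in resistant over sensitive tumors, with adjusted p of 0.069 or more. Without mouse 1-5 RPL23 and RPLP2 were also called higher in sensitive over vehicle tumors (adjusted p = 0.0284 and 0.0473), and RPL5 and RPLP1 were lower in resistant over vehicle tumors (adjusted p = 0.00401 and 0.0193).

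Ribosomal protein genes that the symbol rule leaves out had other values. Of 10 such genes 7 were tested, with 0 called higher and 2 lower in sensitive over vehicle tumors, against 3.16% and 12.6% of all genes. RPS27L, a paralog of RPS27 that p53 induces, was at 84.9 ± 16.9 TPM in vehicle (n = 5), 51.3 ± 8.34 TPM in sensitive (n = 3) and 73.6 ± 4.90 TPM in resistant mice (n = 5). It was lower in sensitive than in vehicle tumors, at -0.63 ± 0.14 (adjusted p = 0.0038), and higher in resistant than in sensitive tumors, at 0.56 ± 0.14 (adjusted p = 0.0189). RPS27 itself moved the opposite way in both comparisons. RPL36AL, the paralog of RPL36A, was at 1027 ± 31.7 TPM and 902 ± 16.6 TPM in vehicle and sensitive mice, with a change of -0.11 ± 0.05 (adjusted p = 0.023, and 0.336 after median-of-ratios scaling). FAU, which encodes a ribosomal protein fused to a ubiquitin-like protein, was not called, at 0.20 ± 0.07. RPL22L1, the paralog of RPL22, was higher in resistant than in vehicle tumors by 0.36 ± 0.09 (adjusted p = 0.0449) at 10.8 against 9.13 TPM, and without mouse 1-5 it was not called. RPL7L1 was lower in that comparison (adjusted p = 0.0205, and 0.457 after median-of-ratios scaling), RPL26L1 was called in none, and RPL3L, RPL10L and RPL39L were at or near 0 in every group.

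Other TOP messages of the translation machinery were counted in the same way. Of 15 tested, 4 were called higher in sensitive over vehicle tumors, against 3.16% of all genes, and 0 lower, and all 15 lay above the median gene, with a median of 0.29. EEF1G and EEF2, elongation factors, were higher by 0.46 ± 0.08 and 0.50 ± 0.10 (adjusted p = 0.00617 and 0.0105). RACK1, a scaffold on the small subunit, and EEF1B2 were the other 2, at 0.38 ± 0.08 and 0.36 ± 0.08. In resistant over sensitive tumors 10 of the 15 were lower, against 11.6% of all genes, and 0 higher, with a median of -0.23, and PABPC1, the poly(A)-binding protein, fell most, by 0.54 ± 0.09 (adjusted p = 0.000779). In resistant over vehicle tumors 4 were lower, PABPC1 again among them, and 0 higher, against 32.5% of all genes lower, and the median was 0.08. Without mouse 1-5 the counts were 6 higher, 15 lower and 8 lower in these 3 comparisons, against 3.85%, 14.0% and 31.6% of all genes, and the last median was -0.0052. After median-of-ratios scaling the counts were 7 higher, 5 lower and 0, against 5.48%, 9.48% and 17.3% of all genes.

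Of 18 tested genes of the path from mTORC1 to TOP messages, 0 were called higher and 2 lower in sensitive over vehicle tumors, against 3.16% and 12.6% of all genes. These were RHEB, the GTPase that activates mTORC1, at -0.50 ± 0.08 (adjusted p = 0.000247), and TBC1D7, a subunit of its inhibitor, at -0.32 ± 0.12 (adjusted p = 0.0419, 0.084 after median-of-ratios scaling and 0.0685 without mouse 1-5). LARP1 was at 0.31 ± 0.08 and was not called (adjusted p = 0.0627, and 0.00844 after median-of-ratios scaling). RHEB was lower in resistant than in vehicle tumors as well (adjusted p = 2.75e-05), where 1 gene of the list was higher and 4 were lower, against 11.5% and 32.5% of all genes. After median-of-ratios scaling 5 were higher and 2 lower there, against 18.0% and 17.3%, and without mouse 1-5 2 were higher and 4 lower. Of 8 chaperones of ribosomal proteins 0 were higher and 1 lower (BCCIP) in sensitive over vehicle tumors, 0 and 0 in resistant over sensitive, and 0 and 2 in resistant over vehicle. None of these 3 calls was made after median-of-ratios scaling or without mouse 1-5. In resistant over sensitive tumors that scaling gave TSR2 higher (limma adjusted p = 0.0482), against 12.2% of all genes. Without mouse 1-5 NAP1L1 was lower there (limma adjusted p = 0.00979), against 14.0%. In the main fit 3.16%, 9.56% and 11.5% of all genes were higher in the 3 comparisons, and 12.6%, 11.6% and 32.5% lower.

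Ribosome biogenesis genes, which make and fold ribosomal RNA, gave 0 higher and 1 lower of 27 in sensitive over vehicle tumors (TCOF1), against 3.16% and 12.6% of all genes, with a median of 0.12. After median-of-ratios scaling 3 were higher and 0 lower, TCOF1 was no longer called (adjusted p = 0.201), and without mouse 1-5 1 was higher and 1 lower. In resistant over sensitive tumors 0 were higher and 8 lower, against 11.6% of all genes lower, with a median of -0.16. NOB1, an endonuclease that finishes the small subunit RNA, fell by 0.45 ± 0.07 (adjusted p = 0.000417), and POLR1A, the large subunit of RNA polymerase I, by 0.52 ± 0.13 (adjusted p = 0.00889). In resistant over vehicle tumors 0 were higher and 10 lower, against 32.5% of all genes lower, and after median-of-ratios scaling 2 were lower, against 17.3%. Without mouse 1-5 the last 2 comparisons gave 10 lower each.

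Mitochondrial ribosomal protein genes, which serve the separate ribosome of that organelle, had their calls in the other direction under short treatment. Of 75, 0 were higher and 34 lower in sensitive over vehicle tumors, against 12.6% of all genes lower, with a median of -0.17. MRPL27 was at 229 ± 19.8 TPM in vehicle and 157 ± 6.18 TPM in sensitive mice, and MRPL51 at 672 ± 24.5 TPM and 493 ± 22.7 TPM. In resistant over sensitive tumors 8 were higher and 1 lower, against 9.56% and 11.6% of all genes. In resistant over vehicle tumors 1 was higher and 41 lower, against 11.5% and 32.5%. With median-of-ratios scaling the first of these comparisons gave 1 higher and 15 lower, against 5.48% and 7.57% of all genes, and the last gave 4 higher and 16 lower, against 18.0% and 17.3%. Without mouse 1-5 the 3 comparisons gave 37 lower, 9 higher and 5 lower, and 43 lower, against 13.2% lower, 11.3% higher and 14.0% lower, and 31.6% lower over all genes.

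Changes were set beside the presence of a tract at the listed start, as a description. In sensitive over vehicle tumors the median was 0.35 in the 46 members with a tract, 0.33 in the 16 without one and 0.31 in the 14 with no entry, with 22, 6 and 3 of them called. In resistant over sensitive tumors the medians were -0.23, -0.23 and -0.28, with 26, 9 and 9 called. Without mouse 1-5 the first comparison gave medians of 0.27, 0.25 and 0.24 with 27, 8 and 6 called, and the second gave 37, 16 and 11 calls. RPL3 and RPS4X, both without a tract in the windows shown above, were called in both comparisons, and RPSA, with a tract, in neither. RPL39 had the longest tract, 19 bases, which runs past the end of its window.

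Members are short and abundant messages, so the other genes of the shortest length quartile and of the top level decile were set beside them. Their longest principal transcripts were 344 to 7686 bases long. By this measure 58 of the 76 fell in the shortest quartile of the 11862 tested genes with a length (84.3% of those tested). That quartile holds genes of up to 2014 bases. The other 2910 genes of that quartile had median relative changes of -0.06 in sensitive over vehicle, 0.10 in resistant over sensitive and 0.04 in resistant over vehicle tumors. All 76 members lay in the top decile by mean TPM. The other 1332 genes of that decile had medians of -0.05, 0.06 and 0.03. The decile begins at a mean of 109 TPM, whereas the median member had 2757 TPM in vehicle mice. These genes are therefore not matched to the members in level, and the part of length or level in the results was not tested.

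**Figure D5:**
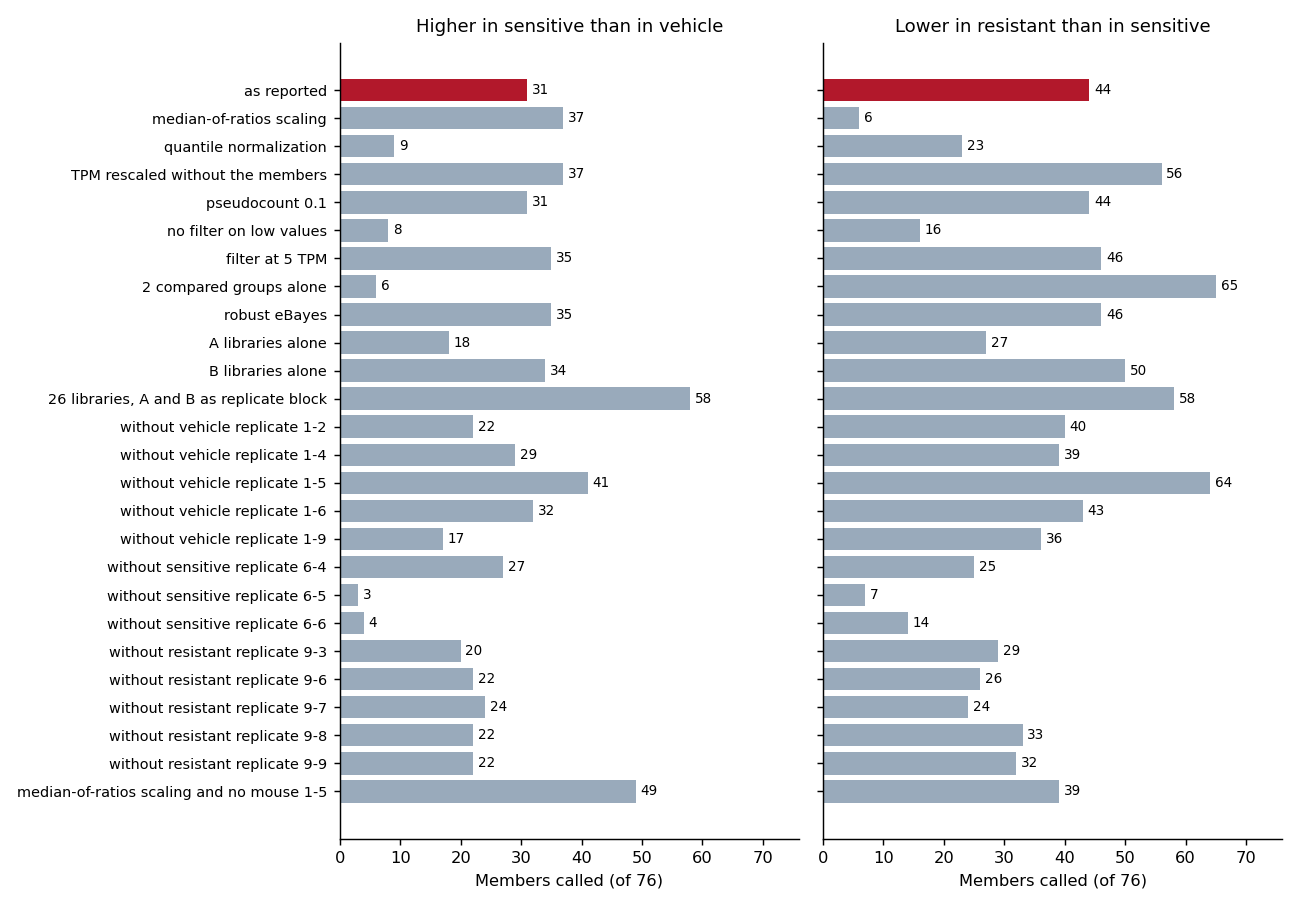
Number of the 76 members called (bars from 0, adjusted p under 0.05) higher in sensitive than in vehicle tumors (left) and lower in resistant than in sensitive tumors (right), as reported (red) and under each alternative (grey). Counts run from 3 to 58 on the left and from 6 to 65 on the right, lowest without sensitive mouse 6-5 on the left and with median-of-ratios scaling on the right.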

How the data were processed

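Messenger RNA of 13 xenograft tumors was sequenced as 26 libraries. The authors deposited 1 table of TPM, with a row for each gene symbol and a column for each library. The submitters' processing notes name RSEM, HTSeq, STAR and FastQC as tools, and GRCm38 beside GRCh38 as builds, with no roles given. Depth is unknown. Each column summed to 999847 to 999887, and 1 row without a name was left out. A and B were averaged for each mouse, and genes with a mean of at least 1 TPM in at least 3 mice were kept (14079). log2(TPM + 1) was fitted with limma 3.58.1 with a trend (R 4.3.3), as 3 group means over 13 mice, with Benjamini-Hochberg adjustment and calls under 0.05, two-sided. Since the log scale adds 1, it slightly understates changes of low genes.

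The members and gene lists were chosen with earlier results of these data known, so no p-value is given for a list and none is adjusted over one. Per-mouse values are given for the 5 highest and 5 lowest members in vehicle mice and for up to 6 called members in each direction, with RPL12, RPL26, RPSA and RPS19 added as members that departed from the rest. Of other lists, up to 4 called genes with the smallest adjusted p in a comparison are named, together with LARP1, FAU and the paralogs of members. There were 24 alternative settings: 13 left out 1 mouse each, and 11 changed the scaling, pseudocount, filter, samples fitted or use of the libraries. Median-of-ratios scaling without mouse 1-5, and centring on the members without that mouse, were added after seeing the data. The fit was tested on simulated data before use. Positions are from GENCODE 29 (GRCh38). Groups came from the labels. A planned description of the proteins was not made, and EIF4A1 had no row.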

Additional observations from a re-analysis of the deposited data

Results flagged for a closer look

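Values far from the rest of their group were sought with Dixon's 95% test in the groups of 5 mice, which by chance marks about 1 group in 20. Vehicle mouse 1-5 was far below the other vehicle mice in the summed share of the members (19.5% against 24.3 to 25.4%). The same mouse was low for the most abundant member RPS27 (13811 TPM, against 17716 to 18982), for RPL41 (6409 TPM, against 7345 to 7609) and for RPL13A (4783 TPM, against 6092 to 6465). It was low for RPS18 (3673 TPM, against 4619 to 4965) and RPL12 (3313 TPM, against 4237 to 4387), which are among the members that departed from the others. Among the least abundant members it was low for RPL34 (632 TPM, against 805 to 857), RPS23 (414 TPM, against 552 to 583) and RPL27A (216 TPM, against 302 to 322). Over all 76 members this mouse was marked for 28 and no other vehicle mouse for any. The count over all genes is not given, so this does not show a trait of the members alone. Resistant mouse 9-7 was marked for its summed share (22.9%, against 23.9 to 24.1%) and for 3 members, and resistant mouse 9-3 for 1 member. The members' share and the counts of calls are given with and without mouse 1-5 above.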

How the results depend on the processing

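In sensitive over vehicle tumors 31 members were called higher; percentages in brackets are shares of all genes called the same way in the same fit. The count was 9 (6.61%) with quantile normalization, 8 (1.78%) with no filter on low values, 6 (1.70%) with the 2 groups fitted alone and 18 (1.68%) with the A libraries alone, and 49 (6.46%) with median-of-ratios scaling and no mouse 1-5. Leaving out 1 mouse at a time gave 3 to 41 calls, with 17 (2.05%) without vehicle mouse 1-9, 20 (2.59%) without resistant mouse 9-3, 3 (0.71%) without sensitive mouse 6-5 and 4 (0.788%) without 6-6. Of the 44 members lower in resistant over sensitive tumors, the count was 6 (9.48%) with median-of-ratios scaling, 23 (12.8%) with quantile normalization, 16 (7.00%) with no filter and 27 (7.68%) with the A libraries, and 7 to 64 with 1 mouse left out: 25, 7 and 14 (4.94, 5.65 and 7.99%) without sensitive mice 6-4, 6-5 and 6-6, and 29, 26 and 24 (8.83, 8.14 and 9.51%) without resistant mice 9-3, 9-6 and 9-7. In resistant over vehicle tumors 4 members were called higher with median-of-ratios scaling (18.0%), also without mouse 1-5 (18.8%), and lower calls numbered 14 (19.7%) with quantile normalization, 1 (36.4%) with a filter at 5 TPM, 1 (32.3%) with robust variance estimates, 3 (27.4%) with the B libraries, and 0 to 20 with 1 mouse left out, with 20 (31.6%) without mouse 1-5 and 1 (29.9%) without mouse 1-2. The members' median change moved to 0.036 with quantile normalization in sensitive over vehicle tumors and reversed to -0.054 in resistant over vehicle tumors, where RPL3 reversed to -0.0081. RPS27 reversed to -0.031 relative to the median gene in sensitive over vehicle tumors, at a change of 0 before the median was subtracted. That setting gives all mice the same set of values by construction, and for the other settings the cause was not tested. With 1 mouse left out the 3 medians were 0.26 to 0.40, -0.30 to -0.20 and 0.04 to 0.17. With A and B of each mouse kept as separate libraries and the replicate block fitted (mouse correlation 0.636), 58 members (4.31%) were higher in sensitive over vehicle, 58 (13.6%) were lower in resistant over sensitive, and 2 (11.5%) were higher and 5 (33.4%) lower in resistant over vehicle tumors. The letters A and B pair nothing across mice, since differences of A from B correlated by -0.105 to 0.119 between mice (median -0.003, 78 pairs of mice). Of 725 values of single members under an alternative, 580 kept their direction and their side of the threshold. These values cover only some of the members in each comparison, so they do not give the stability of the whole set. Depth is unknown, so its limit on precision cannot be given.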

Other observations

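Ribosomal protein pseudogenes had 28 rows, which summed to 151 ± 31.6 TPM in vehicle (SD, n = 5), 158 ± 10.7 TPM in sensitive (n = 3) and 156 ± 6.28 TPM in resistant mice (n = 5). Vehicle mouse 1-5 had 104 TPM, against 139 to 181 TPM in the other vehicle mice. Of the 12 rows that were tested, 0 were called in sensitive over vehicle and in resistant over sensitive tumors by limma, and 1 was called higher and 1 lower in resistant over vehicle tumors. After median-of-ratios scaling 2 were called higher in sensitive over vehicle tumors and 2 in resistant over vehicle tumors, and without mouse 1-5 the counts were 1 and 1.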
